A study of Arabidopsis thaliana with 6 samples.

Results

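A set of 108 probe sets, out of 22746 measured in Arabidopsis thaliana rosette leaves, had low transcript levels in 1 array of the atrap mutant only. A probe set is a group of short array probes that reads 1 transcript or a few related ones, and its level is given here on the log2 scale, where a difference of 1 is a factor of 2. The members were chosen by the 3 atrap values: replicate 2 had to lie over 1 log2 unit below the mean of replicates 1 and 3, and those 2 arrays had to be within 0.5 of each other. The choice rests on 1 mutant sample, so the low values of that sample are described and carry no test. The WT arrays were not used in the choice.

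The series holds 6 arrays, 3 of wild type (WT) and 3 of atrap, which the labels call biological replicates. All plants were 3 weeks old, untreated, and grown at 23 °C under 12 h of light and 12 h of darkness. The sources used here do not give the number of plants per sample, the ecotype, the atrap allele or the time of harvest. RAP (AT2G31890), for which ATRAP is a listed synonym, read 7.87, 7.44 and 7.76 in WT and 6.72, 6.35 and 6.51 in atrap replicates 1, 2 and 3, so replicate 2 was low for RAP like the other mutant arrays.

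Leaves make sugars in the light and live on stored starch at night. When sugars run short, the kinase complex SnRK1 and several bZIP transcription factors turn on genes for breaking down proteins, amino acids and cell components, and such genes are also turned on in prolonged darkness. Autophagy, which encloses cell components in membranes for breakdown in the vacuole, is one of the processes that starvation induces in leaves. Transcripts of many leaf genes also rise and fall over the day under the circadian clock.

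Applied to each array in turn, the same rule gave unequal counts. The mutant replicate 2 had 108 probe sets lower alone and 158 higher alone, while atrap replicate 1 had 0 and 1 and atrap replicate 3 had 3 and 0. Among the WT arrays, WT replicate 3 had 191 higher and 6 lower, WT replicate 1 had 42 lower and 3 higher, and WT replicate 2 had 3 lower and 4 higher. The array of atrap replicate 2 therefore stood apart from its own group in both directions, and WT replicate 3 from its group mainly upward. The 108 members are 0.475% of all probe sets. In bulk leaf RNA, fewer cells of a type and less RNA per cell cannot be told apart.

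**Figure D1:**
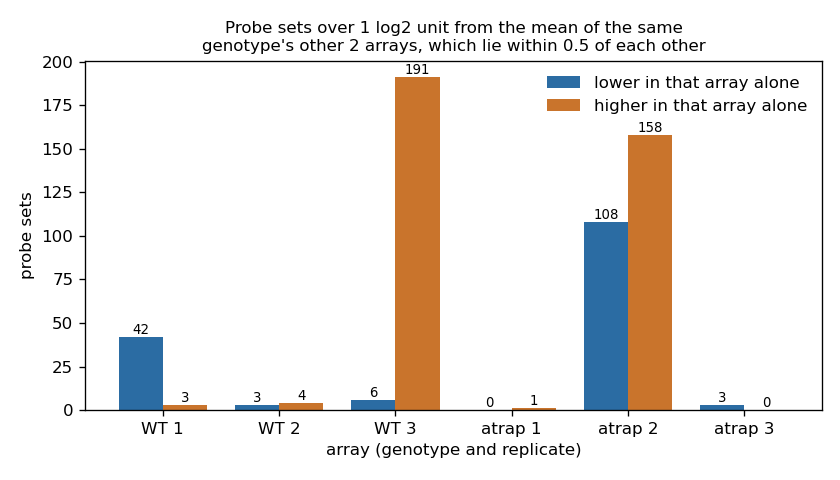
Bars give the number of probe sets (vertical axis) that lie over 1 log2 unit below (blue) or above (orange) the mean of the other 2 arrays of the same genotype, where those 2 are within 0.5 of each other, for each of the 6 arrays (horizontal axis). The tallest bars belong to WT replicate 3 (191 higher) and atrap replicate 2 (158 higher, 108 lower).

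The manufacturer's 64 control probe sets did not set atrap replicate 2 apart. Their median difference from the mean of atrap replicates 1 and 3 was -0.01, and the differences ran from -0.37 to 0.29 on the log2 scale. Poly-A spike-ins, added to the RNA before labelling, averaged 6.44, 6.50 and 6.59 over 24 probe sets in atrap replicates 1, 2 and 3 and 6.75, 6.88 and 7.06 in WT. The gap between actin probe sets at the 3-prime and the 5-prime end, which widens in degraded RNA, was 2.30, 2.31 and 2.28 in the same mutant arrays and 2.68, 2.64 and 2.61 in WT. Both measures thus parted the genotypes without overlap, and their part in the differences between WT and atrap given below was not tested. The medians of the atrap arrays were 6.52, 6.50 and 6.53. Of 23 listed marker genes of other tissues and cell types and of mesophyll, 5 had a probe set paired with their gene. The mesophyll marker RCA, which encodes Rubisco activase, read 14.85 to 14.94 in the 6 arrays, near the top of the scale at 15.01. The root hair expansin EXPA7 read 5.33, 5.55 and 5.38 in atrap replicates 1, 2 and 3 and 5.13 to 5.22 in WT. The related EXPA18 read 5.85, 5.64 and 5.89 in atrap and 5.77 to 5.92 in WT, so these root markers differed in opposite directions in replicate 2, by 0.20 and -0.23. The stomatal lineage factor FAMA read 7.17, 7.17 and 7.10 and the trichome regulator TRY 7.96, 7.84 and 7.87 in those arrays, so no marker parted replicate 2 from the other mutant arrays by over 0.5. Flower, seed and vascular markers had no probe set paired with their gene here.

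Of the 108 members, 52 (48.1%) were paired with 1 gene in the annotation and 56 with no listed gene, against 13513 of all 22746 probe sets (59.4%) paired with 1 gene. Among probe sets with a mean over the 6 arrays of at least log2 6, 53.7% were paired with 1 gene. The 52 genes lay at 52 different loci. For 31 of them a protein family or role is given here, and the other 21 are named by locus alone. The members were bright as a group. Their median WT level was 8.51, against 6.55 over all probe sets, and 103 of 108 had a WT mean of at least log2 6, against 56.3% of all probe sets. No separate filter on level was applied, but the rule itself favours bright probe sets, since replicates 1 and 3 must lie well above replicate 2. The mean of replicates 1 and 3 was at least 5.97 in every member, against a lower quartile of 4.63 over all probe sets. The brightness is therefore not evidence about the members. In 103 members the mean over all 6 arrays was at least log2 6.

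The differences that chose the members ran from -3.25 to -1.001, with a median of -1.35. There were 40 members more than 1.5 below the mean of the other mutant arrays, 20 more than 2 below and 7 more than 2.5 below. Just inside the limit, AT2G46900 and AT2G27830 stood at differences of -1.005 and -1.001, and just outside it GT-1 and AT5G44680 stood at -0.987 and -0.985, so the limit cuts a continuous range. A further 5 probe sets were as low in replicate 2 but were left out because replicates 1 and 3 differed by more than 0.5.

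The member of known gene with the largest difference was AT1G49200, which encodes a RING-type protein, a class that includes many ubiquitin ligases. It read 10.28 and 10.39 in atrap replicates 1 and 3, 7.37 in replicate 2, and 9.94, 9.66 and 9.25 in WT replicates 1, 2 and 3. Its level in atrap replicate 2 was 7.83-fold below the mean of the other mutant arrays, and all 3 WT arrays lay between them. AT1G49500, with no role given here, read 10.75, 8.06 and 10.68 in atrap replicates 1, 2 and 3 and 10.33, 10.08 and 9.55 in WT, a 6.30-fold difference with the same order. The RING-type genes AT4G17245 and AT1G19680 had smaller differences, -1.17 and -1.13.

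**Figure D2:**
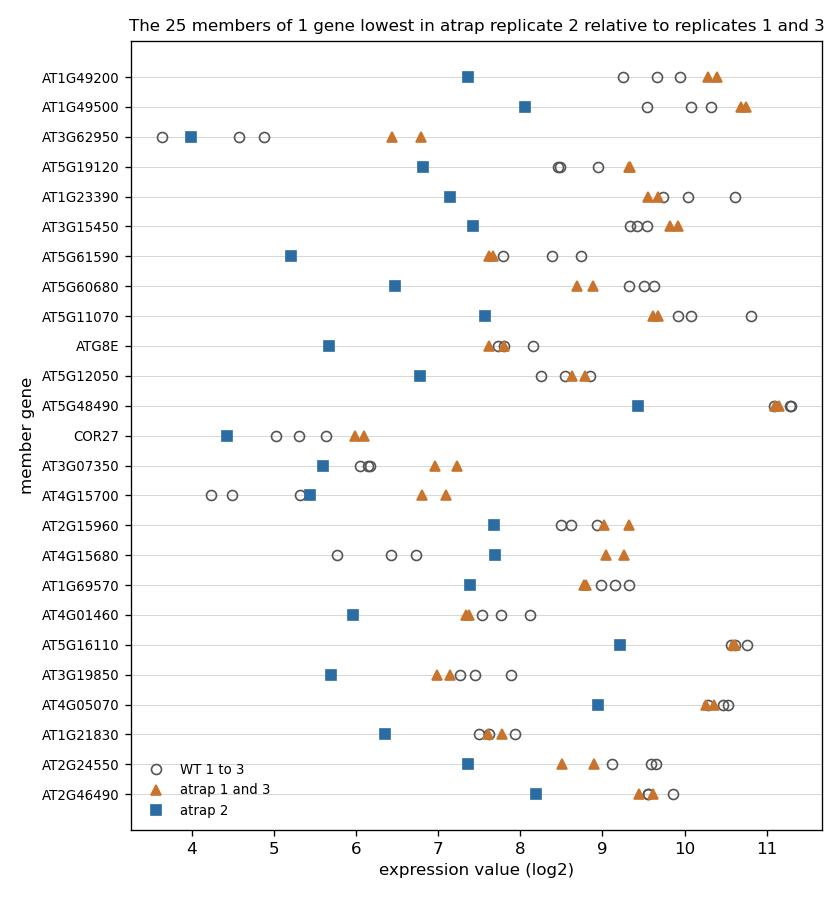
Each row is 1 of the 25 members of known gene with the largest differences, and the horizontal axis is the expression value (log2) in every array, with open circles for the 3 WT arrays, triangles for atrap replicates 1 and 3 and squares for atrap replicate 2. The square lies left of all other symbols in every row except those of AT3G62950, AT4G15700 and AT4G15680.

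Of the genes listed for sugar starvation and darkness, 4 were members. AT5G19120, an aspartyl protease family gene, read 9.34, 6.81 and 9.33 in atrap replicates 1, 2 and 3 and 8.95, 8.46 and 8.48 in WT. AT3G15450, of a plant family annotated as aluminium-induced, read 9.82, 7.43 and 9.92 in atrap and 9.42, 9.54 and 9.33 in WT. Both transcripts were more than 5-fold lower in atrap replicate 2 than in the other mutant arrays (5.74-fold and 5.45-fold), and in both the WT arrays lay between. AKINBETA1 (AT5G21170, also KINBETA1), a regulatory beta subunit of SnRK1, read 9.81, 8.65 and 9.97 in atrap and 9.73, 9.82 and 9.52 in WT, so that its WT range overlapped that of atrap replicates 1 and 3. AT4G27450, a relative of AT3G15450, read 9.27, 8.28 and 9.36 in atrap and 9.12, 8.99 and 8.58 in WT.

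The list had 42 genes, of which 10 had a probe set paired with them. In atrap replicate 2, 9 of these 10 lay below the mean of replicates 1 and 3, and 4 lay over 1 log2 unit below it and 0 over 1 above. The median difference of the list was -0.47. Over all probe sets the median was -0.0035, 50.8% lay below and 0.497% lay over 1 log2 unit below. The list was written with earlier results of these data known, so its counts are a description. The list genes that were not members and lay lowest were BZIP53, a bZIP factor of amino acid catabolism under starvation, at -0.47, MCCA, a subunit of the leucine-degrading methylcrotonyl-CoA carboxylase, at -0.47, and ATL8, a RING-type protein, at -0.46. Each of these differences is under 1, and that of MCCA set 7.85 in replicate 2 against 8.28 and 8.36. Further genes of branched-chain amino acid breakdown differed less, with MCCB at -0.18, ETFQO at -0.09 and IVD at 0.02.

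In the comparison of all 3 atrap arrays with WT, 0 of the 10 genes passed in either direction (limma, 2 at an unadjusted p under 0.05). Across all probe sets 6.70% passed as higher and 6.41% as lower in atrap. Those 2 unadjusted calls were ETFQO and IVD, which are not members. Without atrap replicate 2, 2 of the 10 passed as higher in atrap and 0 as lower, beside 6.24% and 5.46% of all probe sets. Both were members, AT3G15450 (log2 difference 0.44, adjusted p = 0.0359, limma) and AT5G19120 (0.70, adjusted p = 0.0374). The rule used these atrap values, so nothing is read from the calls of these members.

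**Figure D3:**
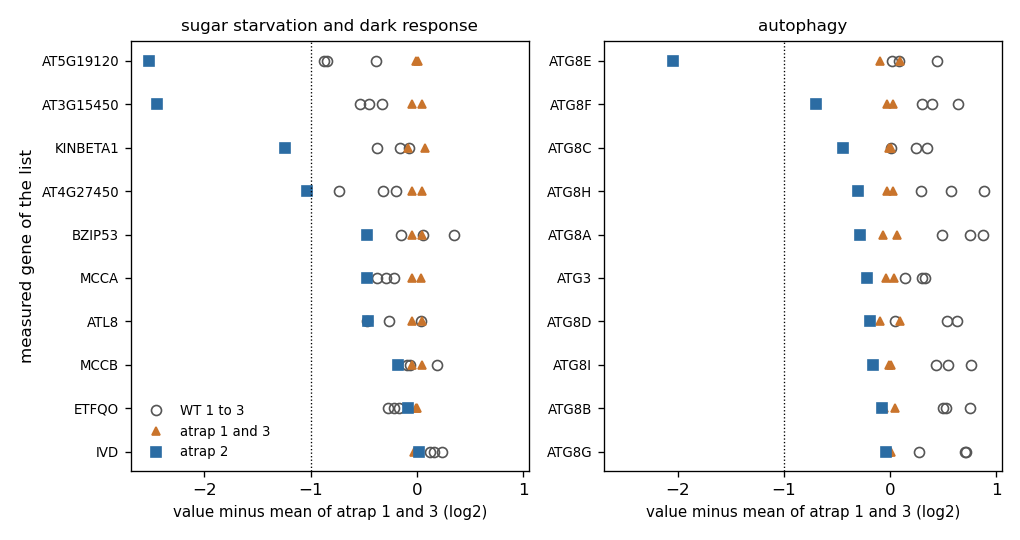
Each row is a measured gene of the sugar starvation and dark list (left) or the autophagy list (right), and the horizontal axis is its value minus the mean of atrap replicates 1 and 3 (log2), with the dotted line at -1. Of 10 genes in each panel, 4 on the left and 1 on the right, ATG8E, have the square of atrap replicate 2 beyond the line.

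A list of genes known to be induced by sugars had 15 entries and 4 measured genes, of which 0 were members. APL3, a subunit of the starch-synthesis enzyme ADP-glucose pyrophosphorylase, read 5.39, 6.24 and 5.33 in atrap replicates 1, 2 and 3 and 6.56, 7.05 and 7.17 in WT. Replicate 2 was the highest mutant array for APL3, by 0.88 over the mean of the others, and below every WT array. DFR, an anthocyanin synthesis enzyme, stood 0.38 higher in replicate 2, APL4, another subunit of the APL3 enzyme, 0.07 higher, and the orphan gene QQS at -0.38. The median of the 4 was 0.23, against -0.47 for the starvation list, and the difference between these lists was not tested. Lists not about sugars also lay on both sides of 0. The median was 0.39 over 3 touch, wound and jasmonate genes and 0.16 over 5 dehydration and cold genes. It was -0.73 over 2 auxin genes.

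The autophagy member was ATG8E (AT2G45170), a ubiquitin-like protein that is attached to autophagosome membranes. Its transcript read 7.62, 5.67 and 7.81 in atrap replicates 1, 2 and 3 and 7.80, 8.16 and 7.73 in WT. Atrap replicate 2 was thus more than 2 log2 units below each of the WT arrays, which overlapped with the other mutant arrays. All 10 measured autophagy genes, 9 of them of the ATG8 family, lay below the mean of replicates 1 and 3, with a median of -0.25, but ATG8E was the only one past 1. ATG8F and ATG8C followed at -0.70 and -0.44. In the 6-array comparison, 5 of the 10 passed as lower in atrap and 0 as higher (limma), beside 6.41% and 6.70% of all probe sets, and ATG8E was not among them (adjusted p = 0.317). Without atrap replicate 2 the count was 3 lower (ATG8A, ATG8B and ATG8I), beside 5.46% of all probe sets, with ATG8G at an adjusted p of 0.0566 and ATG8H at 0.0681.

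The clock and cold member was COR27 (AT5G42900), a regulator of cold tolerance and flowering whose transcript follows the clock. It read 5.99, 4.43 and 6.10 in atrap replicates 1, 2 and 3 and 5.30, 5.63 and 5.02 in WT, so all WT arrays lay between the low and the high mutant arrays. The value in replicate 2 was under the lower quartile of all probe sets in that array, 4.65, where levels are hard to tell apart. Of 35 listed clock and photoperiod genes, 3 were measured. GI, an evening-phased clock gene, read 5.47, 7.40 and 5.37 in atrap and 5.36, 5.14 and 5.48 in WT, so that it was high in the array in which COR27 was low. COR28, the closest relative of COR27, read 3.96, 3.99 and 3.99 in atrap, near the floor of the scale. The member AT1G69570 is a Dof transcription factor of the CYCLING DOF FACTOR family, which represses flowering in photoperiod control. It read 8.78, 7.39 and 8.80 in atrap and 8.99, 9.33 and 9.15 in WT.

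AT5G61590, known as DEWAX, is an ERF-type repressor of cuticular wax synthesis that is known to be more active in darkness. It read 7.67, 5.21 and 7.62 in atrap replicates 1, 2 and 3 and 7.79, 8.74 and 8.38 in WT. Its level in replicate 2 was 5.41-fold below the other mutant arrays and 3.09 log2 units below the WT mean (SD in WT 0.48, n = 3). AT1G23390, a kelch F-box protein that targets chalcone synthase for degradation, read 9.68, 7.15 and 9.56 in atrap and 9.74, 10.61 and 10.04 in WT. AT5G60680, of the S40-like DUF584 family that has been linked to leaf senescence, read 8.89, 6.48 and 8.69 in atrap and 9.32, 9.50 and 9.62 in WT. For these 3 genes every WT array lay above every mutant array, including replicates 1 and 3. Of 14 listed senescence genes, 4 were measured and 0 of these were members. They stood between -0.08 and 0.40 in replicate 2 relative to the others. The other listed genes had no probe set paired with them, so their membership is not known.

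Among the 31 members with a family or role given here, 5 were transcription factors. They were AT5G61590, AT1G69570, the bHLH factor AT4G01460, the bZIP factor BZIP61 (AT3G58120) and BPC1 (AT2G01930), which binds GA-repeat DNA. AT4G01460 read 7.37, 5.97 and 7.34 in atrap replicates 1, 2 and 3 and 7.77, 8.11 and 7.54 in WT. BZIP61 read 7.46, 6.43 and 7.56 in atrap and 7.19, 7.48 and 7.15 in WT. BPC1 read 6.76, 5.57 and 6.63 in atrap and 6.61, 6.72 and 6.42 in WT. In these 3 genes atrap replicate 2 was lower than all 5 other arrays. The same held for AT5G63480, the MED30 subunit of the Mediator complex that links factors to RNA polymerase II, with 7.39, 6.11 and 7.48 in atrap and 7.01, 7.30 and 6.77 in WT.

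Among genes tied to hormones and light, WES1 (AT4G27260, GH3.5), an enzyme that joins auxin and salicylic acid to amino acids, read 7.55, 6.58 and 7.65 in atrap and 7.49, 7.07 and 7.21 in WT. Its relative GH3.3, the other measured gene of the auxin list, stood at -0.43 in replicate 2. AT3G19850, of the NPH3 family that holds proteins of phototropin signalling, read 6.99, 5.70 and 7.14 in atrap and 7.45, 7.89 and 7.26 in WT. Of 9 listed light-signalling genes, 2 were measured and 0 were members. HYH, a bZIP factor of light responses, read 10.10, 10.61 and 10.12 in atrap and 9.74, 9.33 and 9.43 in WT, and IAA29, an auxin-response repressor, read 5.53, 5.06 and 5.44 in atrap and 5.86, 6.75 and 6.04 in WT.

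AT5G48490, a lipid transfer protein similar to the defence-signalling protein DIR1, read 11.15, 9.43 and 11.11 in atrap and 11.29, 11.29 and 11.08 in WT. The 5 other arrays lay between 11.08 and 11.29, and replicate 2 was 3.25-fold below the mean of its group's other arrays. The DUF506 family, for which no function is given here, was assigned to 3 members of known gene. They were AT3G07350 at 2.84-fold, AT2G20670 at 2.33-fold and AT2G38820 at 2.02-fold below the other mutant arrays. Genes of a family annotated as wound-responsive, AT4G05070 and AT4G28240, stood at -1.37 and -1.20, and the hydrolase genes AT5G14390, AT2G41250 and AT5G18630 at -1.25, -1.08 and -1.06. AT2G41250 was the brightest member, with a WT mean of 12.21.

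Among the members of known gene, the 3 CC-type glutaredoxins had the WT means farthest below the mean of atrap replicates 1 and 3. Members without a listed gene also had such WT levels, and WT minus that mean reached -3.54 in 252367_at. The CC-type glutaredoxins are small plant redox proteins that bind TGA transcription factors, and several of them respond to nitrate. AT3G62950 read 6.44, 3.99 and 6.79 in atrap replicates 1, 2 and 3 and 4.88, 4.58 and 3.64 in WT, so that replicate 2 lay within the WT range and the other mutant arrays above it. Its WT mean, 4.37, was under the lower quartile over all probe sets, 4.60. Its values in WT and in replicate 2 were thus near the floor of the scale, where levels are hard to tell apart. AT4G15700 read 6.80, 5.45 and 7.09 in atrap and 5.32, 4.49 and 4.23 in WT, so that its values in WT replicates 2 and 3 were also under 4.60. AT4G15680 read 9.05, 7.69 and 9.27 in atrap and 6.73, 6.42 and 5.77 in WT. For the last 2 genes, all WT arrays lay below atrap replicate 2, which lay below the other mutant arrays. AT4G15680 and AT4G15700 lie 2 gene steps apart on the chromosome and are paralogs, so probes could bind both transcripts, which was not tested. The gene between them, AT4G15690, named after its values were seen, was not a member because atrap replicates 1 and 3 differed by more than 0.5, at 7.89 and 8.47. It read 7.07 in replicate 2 and 6.63, 5.52 and 5.47 in WT.

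The WT arrays, which the choice did not use, placed the members in 3 profiles. A member was called near if its WT mean was within 0.5 of the mean of atrap replicates 1 and 3, a width taken from the rule itself. Near members numbered 61 (56.5%), members with WT above numbered 21 (19.4%) and members with WT below numbered 26 (24.1%). The quartiles of WT minus that mean were -0.45 and 0.38 over members. They were -0.17 and 0.13 over all probe sets, and -0.21 and 0.22 over those with a mean of at least log2 6. The members' WT levels were thus spread more widely around atrap replicates 1 and 3. Of all members, 97 of 108 (89.8%) had every WT array above atrap replicate 2, and 2 had every WT array below it, AT4G15680 and AT4G15700. Over all probe sets, 29.7% had every WT array above that array. The WT mean lay nearer atrap replicate 2 than the mean of the others in 19 of 108 members, against 48.0% of all probe sets. Choosing members by an extreme replicate 2 and close replicates 1 and 3 shifts both shares by itself, so neither is evidence about the members.

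**Figure D4:**
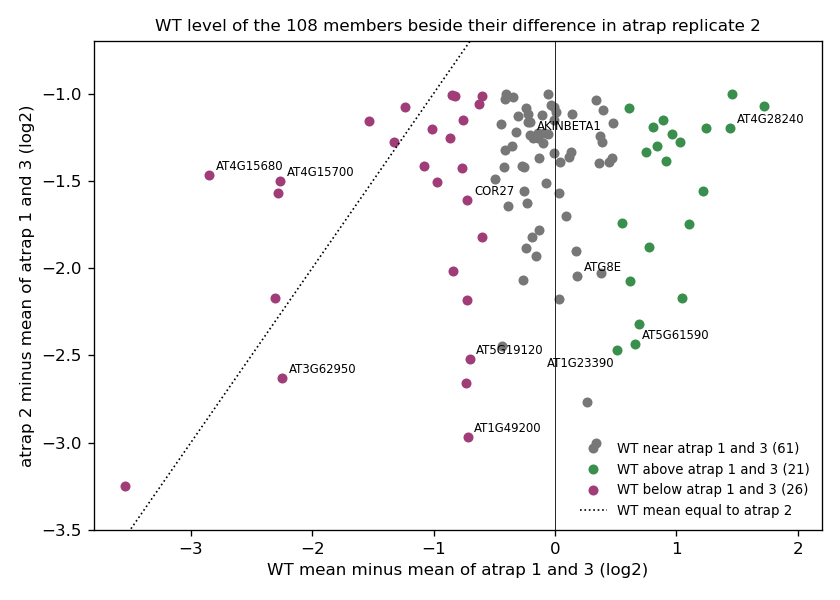
Each point is 1 of 108 members, with the WT mean minus the mean of atrap replicates 1 and 3 on the horizontal axis and atrap replicate 2 minus that mean on the vertical axis, both in log2 units. Grey points (61) have a WT mean within 0.5, green points (21) one above and purple points (26) one below, and points left of the dotted line have WT means below atrap replicate 2.

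In the median over members, WT lay 0.14 below the mean of atrap replicates 1 and 3 and 1.28 above atrap replicate 2 on the log2 scale. Without WT replicate 3 the first of these medians was -0.02, and without WT replicate 2 it was -0.21. The same differences were -0.03 and -0.02 over all probe sets. Members with WT above had WT medians of 9.18, 9.60 and 9.65 in replicates 1, 2 and 3, against 8.89, 7.02 and 8.51 in atrap. The largest WT excess among genes with a name was that of AT2G27830, at 1.46, with 8.22, 8.75 and 8.90 in WT and 7.29, 6.16 and 7.04 in atrap. AT4G28240 read 11.18, 11.89 and 11.57 in WT and 10.13, 8.91 and 10.08 in atrap, and AT3G06070 read 8.63, 9.36 and 9.18 in WT and 8.19, 6.75 and 7.85 in atrap. AT5G25280 and AT5G57340 had WT excesses of 0.89 and 0.84. In 20 of these 21 members every WT array was above both atrap replicates 1 and 3, and replicate 2 lay lower still. The profile requires a WT mean over 0.5 above the mean of those arrays, and the rule requires replicate 2 below it. Neither is therefore evidence about the members.

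In the 26 members with WT below, every WT array lay below both atrap replicates 1 and 3, which the sorting by WT mean favours. Their WT medians were 7.90, 7.70 and 7.61, against 8.98, 7.52 and 9.18 in atrap. Beside the glutaredoxins, AT3G07350 had a WT deficit, at 6.14, 6.05 and 6.18 in WT and 7.23, 5.59 and 6.97 in atrap. All 19 members whose WT mean was nearer atrap replicate 2 were in this group, and 14 of them had no gene listed here. The rule and the width of the near profile place every such member in this group. The placement is therefore not evidence about the members. The probe set with the largest difference of all, 252367_at, belonged there, with 10.69, 7.47 and 10.75 in atrap replicates 1, 2 and 3 and 7.82, 6.96 and 6.76 in WT. For this probe set the WT mean was 0.29 below atrap replicate 2, and the other mutant arrays were 11.6-fold above WT. The next largest without a listed gene, 253061_at and 266656_at, had the near profile. They read 9.83, 6.68 and 9.52, and 9.18, 6.45 and 9.25, in atrap and 9.67, 10.02 and 10.36, and 9.36, 9.91 and 9.18, in WT. These 3 probe sets were named after their values were seen. The 56 members without a listed gene had a median difference of -1.42, and the 52 with a gene -1.31.

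The members also varied among the WT arrays. Their median SD over the 3 WT arrays was 0.29, against 0.12 over all probe sets and 0.13 over those with a mean of at least log2 6. A WT range of at least 1 log2 unit occurred in 14 of 108 members, against 2.16% of all probe sets. The lowest of the WT arrays was replicate 3 in 70 of 108 members (64.8%), against 39.0% of all probe sets, and WT replicate 2 was the highest in 64 (59.3%), against 27.7%. The order differed by profile. WT replicate 3 was the lowest in 46 of 61 near members and 22 of 26 with WT below, whereas WT replicate 1 was the lowest in 19 of 21 with WT above. The profiles were themselves set by the WT means, and no shares by profile over all probe sets are given here. The members' median deviation from the WT mean was -0.16 in WT replicate 3 and 0.13 in WT replicate 2. Their difference in atrap replicate 2 was set by the rule, so the sizes are not compared. These WT values were not used to choose the members, but probe sets that change together are not independent, and no test was made over them.

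**Figure D5:**
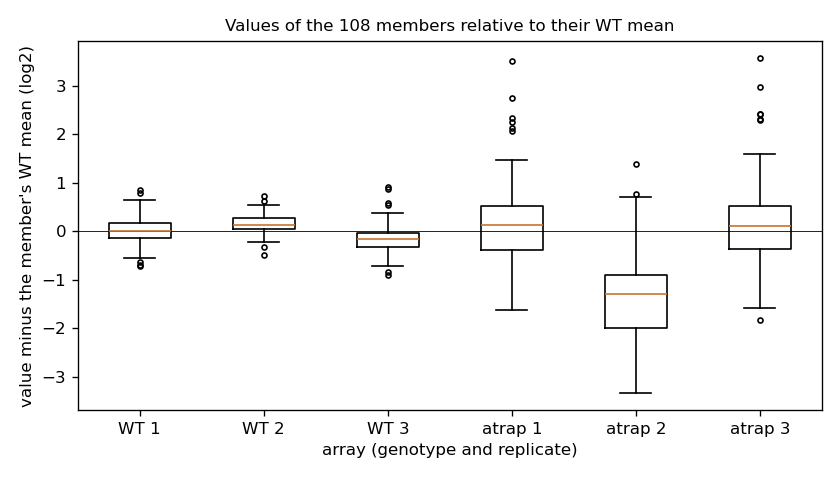
Boxes show, for each of the 6 arrays (horizontal axis), the values of the 108 members minus each member's WT mean (log2, vertical axis), with the median in orange, the quartiles as the box, whiskers to the last value within 1.5 box lengths and points beyond. WT replicate 3 is slightly below and WT replicate 2 slightly above 0, and the box of atrap replicate 2 lies lowest, with 1.28 as the size of its median below WT.

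In the comparison of all 3 atrap arrays with WT (limma, adjusted p under 0.05 over 22746 probe sets), 7 members passed as lower in atrap and 2 as higher. That is 6.48% and 1.85% of members, beside 6.41% and 6.70% of all probe sets. The named members that passed were AT3G06070, AT4G28240, AT5G25280 and AT2G27830 as lower, and AT4G15700 and AT4G15680 as higher. Non-overlap of the 2 genotypes, with every WT array above every atrap array, occurred in 27 of 108 members beside 16.5% of all probe sets, and the reverse in 2 members beside 19.1%. When atrap replicate 2 was left out, 10 members passed as lower and 21 as higher in atrap, beside 5.46% and 6.24% of all probe sets. Leaving out 1 array moved the calls over all probe sets as well as those of the members. The 6-array comparison called 2981 probe sets, 9 of them members. It called 438 with 0 members without WT replicate 2, and 1260 with 3 members without WT replicate 3. Omitting mutant replicate 1 left 350 with 2 members, and omitting mutant replicate 3 left 629 with 1. With atrap replicate 2 already left out, 2662 were called, 31 of them members. That became 4483 with 48 members without WT replicate 1, and 329 with 12 without WT replicate 2. The rule used the atrap values and kept the spread of replicates 1 and 3 small, so nothing is read from these member counts.

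A gene's second probe set was available for 1 member locus. AT1G21830 read 7.60, 6.35 and 7.78 in atrap replicates 1, 2 and 3 with the member probe set, and 7.82, 7.52 and 7.89 with the other. The second probe set was thus lowest in the same mutant array, by 0.34 in place of 1.34. Of the 108 members, 1 had a probe set name that marks probes shared between transcripts.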

How the data were processed

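The authors deposited log2 values for 22810 probe sets on 6 arrays, and the submitters' processing notes name RMA. Its software and version are not stated in the material used, and the values (3.12 to 15.01) show the log2 scale. RMA equalises the arrays' distributions and compresses changes of dim probe sets. The number of arrays limits the precision, since they have no read depth.

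The 64 control probe sets were left out. Gene names came from the array's gene table (13513 probe sets with 1 gene, 503 with several, 8730 with none listed), updated by gene identifier through a table of assembly TAIR10.1, which matched 13436. The rule was applied to the deposited values. Calls used limma 3.58.1 in R 4.3.3 (lmFit, eBayes, two-sided, Benjamini-Hochberg over 22746 probe sets), with Python 3.11.15 and pandas 2.3.3 for summaries. Scripts were tested on simulated data.

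The members and the 21 gene lists were chosen with earlier results of these data known, and protein families were assigned after the members were seen. Of 232 listed loci, 50 had a probe set paired with 1 gene. For a gene with several, the brightest was used. Named genes were the 25 members of 1 gene with the largest difference, every member on a list, the nearest probe sets inside and outside the limit, the 5 members with WT farthest above and the 5 farthest below, and up to 4 other genes per list. RAP and those marked in the text fall outside this rule.

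Same-numbered WT and atrap arrays correlated at 0.13, 0.02 and -0.15 in their deviations, so the numbers were not used as pairs. Alternatives were other limits, quantile normalization, median centring, a filter at log2 6, an intensity trend, a replicate block and leaving out arrays.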

Additional observations from a re-analysis of the deposited data

How the results depend on the processing

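The number of members was 108, and 40 with a limit of 1.5 log2 units, 222 with 0.75 and 52 over probe sets of 1 gene, all by construction. It was 90 to 113 under the other limit on replicates 1 and 3, no such limit, both normalizations and the filter at log2 6. Quantile normalization kept 104 of the 108 and median centring 101. Set against a single mutant array, an alternative chosen after seeing the data, replicate 2 was low in 122 without replicate 1 and 109 without replicate 3. Members with WT nearer replicate 2 numbered 19, and 6 and 5 among members past 1.5 and those of 1 gene. The median WT excess over replicate 2 was 1.28, and 1.80 among members past 1.5. Both normalizations moved the difference in replicate 2 by at most 0.04 in the 52 members of 1 gene. Leaving out 1 WT array changed the sign of WT minus atrap replicates 1 and 3 in 7 of them, whose differences were at most 0.09.

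The 6-array comparison gave 2981 calls, 2101 with a replicate block and 350 to 3863 without 1 array. Omitting WT replicate 2 gave 438, omitting WT replicate 3 gave 1260, and the mutant replicates 1 and 3 gave 350 and 629. Without atrap replicate 2 there were 2662 calls, and 86 with a replicate block. Leaving out 1 more array gave 6 to 4483, namely 4483 when WT replicate 1 was omitted, 329 for WT replicate 2, and 6 and 22 for the mutant replicates 1 and 3, where a lone mutant array is assumed to vary like WT. The cause was not tested. Members among the calls numbered 9 and 31 in the 2 comparisons, and 6 and 3 with a replicate block.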
